A study of Rattus norvegicus with 6 samples.

Results

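The genes described here encode receptors for extracellular nucleotides: the P2X ion channels P2rx3, P2rx4, P2rx5, P2rx6 and P2rx7, and the G-protein-coupled receptors P2ry1, P2ry2, P2ry6, P2ry12 and P2ry14. They were chosen by name, and all 10 were among the 16551 genes of the mRNA table, each on a single row. RNA was sequenced from primary cells of rat dorsal root ganglia (lumbar 5 to sacral 3), which hold sensory neurons and the glia around them. For 48 h, 3 samples were held at a glucose concentration of 45 mmol/L (high glucose) and 3 in normal medium (control). Samples titled DM were read as high glucose from the titles and protocol, with no label saying so outright. The glucose level of the control medium, the strain, age and sex of the rats and any pooling of animals were not given, nor was there an osmolarity control. Samples within a group are labelled duplicates, with no word on separate cultures or animals, so p-values speak only to the scatter among these 6 samples, and that scatter may be technical.

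P2X receptors are trimeric cation channels that open when ATP binds, and P2Y receptors are seven-helix receptors for ADP, ATP, UTP, UDP or UDP-sugars that signal through G proteins. In sensory ganglia, P2X3 is known from small nociceptive neurons, where it carries fast responses to ATP released by damaged tissue. P2X4, P2X7, P2Y6 and P2Y12 are known from microglia and macrophages, and P2X7 and several P2Y receptors also from satellite glial cells.

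The 3 receptors whose RNA differed between the groups by the test were P2rx3, P2rx4 and P2ry2, and their start regions are shown because the results turn on these genes. Each line gives the 250 bases before an annotated start, 5′ to 3′ on the gene's strand, from RefSeq on the rat build GRCr8. P2rx3 has 2 annotated starts. Its first window is chr3:90531316-90531565 and its second chr3:90529310-90529559, the P2rx4 window is chr12:39523090-39523339 and the P2ry2 window is chr1:164779489-164779738, all on the minus strand. Capitals mark matches to any of 7 short motifs searched on both strands: the TATA box, spelled TATAAA; the box spelled CCAAT; the GC box, spelled GGGCGG; the AP-1 site, spelled TGANTCA; the CRE, spelled TGACGTCA; the E-box, spelled CACGTG; and the core of the tonicity element TonE, spelled TGGAAA. None of the 7 contains another.
P2rx3 window 1: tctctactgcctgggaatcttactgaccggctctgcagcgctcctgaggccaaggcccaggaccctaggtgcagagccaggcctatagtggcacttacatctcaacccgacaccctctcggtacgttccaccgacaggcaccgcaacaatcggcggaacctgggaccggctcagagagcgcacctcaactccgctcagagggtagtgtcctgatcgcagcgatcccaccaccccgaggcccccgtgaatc
P2rx3 window 2: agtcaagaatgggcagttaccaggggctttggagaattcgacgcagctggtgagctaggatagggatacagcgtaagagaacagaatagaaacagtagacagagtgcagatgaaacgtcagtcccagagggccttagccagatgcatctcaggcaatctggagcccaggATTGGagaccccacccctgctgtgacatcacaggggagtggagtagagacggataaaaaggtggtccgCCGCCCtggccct
P2rx4: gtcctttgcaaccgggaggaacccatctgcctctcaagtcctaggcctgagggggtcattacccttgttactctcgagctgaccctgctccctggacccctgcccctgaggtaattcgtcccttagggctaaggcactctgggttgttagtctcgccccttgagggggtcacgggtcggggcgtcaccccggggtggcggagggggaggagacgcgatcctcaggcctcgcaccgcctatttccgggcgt
P2ry2: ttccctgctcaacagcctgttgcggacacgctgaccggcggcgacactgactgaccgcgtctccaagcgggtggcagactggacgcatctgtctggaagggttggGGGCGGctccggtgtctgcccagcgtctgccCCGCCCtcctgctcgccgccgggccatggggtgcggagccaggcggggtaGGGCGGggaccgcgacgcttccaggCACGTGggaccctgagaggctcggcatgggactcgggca

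The P2ry2 window held GC boxes at 145 to 140, 114 to 109 and 64 to 59 bases before the start and an E-box at 39 to 34. The second P2rx3 window held a CCAAT box at 81 to 77 and a GC box at 13 to 8 bases before the start. The P2rx4 window and the first P2rx3 window held none of the 7 motifs. Over all 33469 windows of this length, 30.5% held a GC box, 34% a CCAAT box, 5.59% an E-box, 12.9% a TATA box, 6.34% an AP-1 site, 1.59% a CRE and 19.7% the TonE core. The GC content was 71.2% in the P2ry2 window, 64% in the P2rx4 window, and 62.4% and 54.4% in the P2rx3 windows, against a median of 51.2%. A match describes letters only, and no match says only that these letters are not in the window. RefSeq windows were found for 7 of the 10 members.

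The question was how the RNA of nucleotide receptors differed between ganglion cells in high glucose and in control medium. P2rx3 rose 2.23-fold, P2rx4 fell 1.29-fold and P2ry2 fell 3.65-fold in high glucose. The test was limma with a trended variance prior on the deposited log2 CPM (log2 of reads scaled to library size), two-sided, and p-values were adjusted by Benjamini-Hochberg across the 16551 genes. Of the 10 members, 3 passed at an adjusted p under 0.05, 1 higher and 2 lower, which is 30% of them, against 50.5% of all genes (24.9% higher, 25.5% lower). The samples of the groups did not overlap for 7 of the 10 members (2 higher, 5 lower), against 57.6% of all genes (28.7% higher, 28.9% lower). The median log2 fold change was -0.51 over the members and 0.012 over all genes. Each log2 fold change is high glucose minus control with its standard error, and each rests on 3 samples per group.

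Reads of the mRNA table, worked back from the deposited values, came to 28780612, 29904796 and 33108451 in the high-glucose samples and to 28949744, 32181594 and 30657772 in the control samples. Of the members, 6 had a mean level under 1 CPM (a log2 value under 0) and none of these passed, against 18.6% of all genes at that level. The 4 members at or above that level held the 3 that passed, against 61.7% of all genes there. At under 60 reads over the 6 samples, P2rx6, P2ry12 and P2ry14 were the scarcest.

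**Figure D1:**
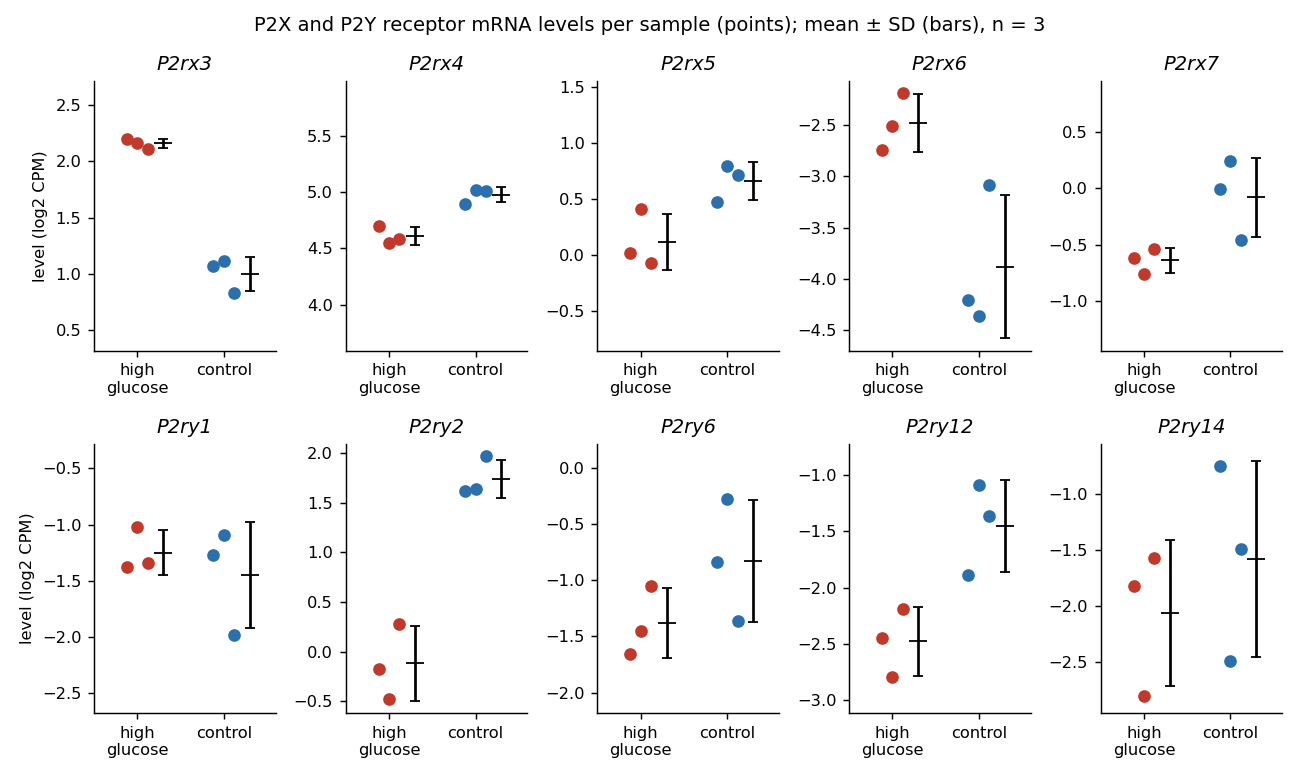
Level of each of the 10 receptors in every sample as log2 CPM, with high glucose left of control; points are samples and bars give the mean ± SD (n = 3), each panel with its own axis range. P2rx3 lies between 2.11 and 2.20 in high glucose and between 0.83 and 1.11 in control, while P2ry2 lies between -0.48 and 0.28 in high glucose and between 1.62 and 1.97 in control.

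P2rx3 (ENSRNOG00000008552), a channel known from nociceptive neurons, had 137, 140 and 147 reads in the high-glucose samples, against 58, 66 and 52 in the control samples. Every high-glucose sample stood above every control sample, and the groups did not overlap. Its level averaged 2.16 ± 0.04 log2 CPM in high glucose and 1.00 ± 0.15 log2 CPM in control (SD, n = 3 each). P2rx3 rose by a log2 fold change of 1.15 ± 0.14, which is 2.23-fold with a 95% interval of 1.8 to 2.75 (limma, adjusted p = 1.22e-05). It passed in all 15 alternative settings tried, at log2 fold changes of 1.07 to 1.27.

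P2rx4 (ENSRNOG00000001300), a channel of microglia, macrophages and epithelia, held the most reads of the 10 members. It had 779, 735 and 815 reads in high glucose, against 828, 1003 and 955 in control. In log2 CPM the high-glucose samples stood at 4.70, 4.55 and 4.58 and the control samples at 4.90, 5.02 and 5.01, so the groups did not overlap but lay close together. P2rx4 fell, with a log2 fold change of -0.37 ± 0.05, which is 1.29-fold lower with an interval of 1.19 to 1.4 (limma, adjusted p = 6.09e-05). It passed in all 15 alternatives, with log2 fold changes of -0.41 to -0.25.

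P2rx5, P2rx6 and P2rx7 did not pass, although in log2 CPM none of them overlapped between groups. In reads, P2rx5 and P2rx7 did overlap. P2rx5 (ENSRNOG00000019208), a channel of sensory neurons and muscle, had 30, 41 and 32 reads in high glucose and 38, 53 and 48 in control, with a log2 fold change of -0.54 ± 0.22 (limma, adjusted p = 0.0561). It passed in 5 of 15 alternatives, among them without high-glucose replicate 2 (adjusted p = 0.0343), and its adjusted p ran from 0.0256 to 0.157. P2rx7 (ENSRNOG00000001296), the channel that opens at high ATP and drives inflammasome activation in macrophages, had 19, 18 and 23 reads in high glucose and 27, 36 and 21 in control. Its log2 fold change was -0.56 ± 0.28, with a 95% interval of -1.16 to 0.03 (limma, adjusted p = 0.108), and it passed in 1 of 13 alternatives, quantile normalization (adjusted p = 0.0433).

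P2rx6 (ENSRNOG00000001873), a subunit that forms channels poorly on its own, was close to the limit of detection. It had 4, 5 and 7 reads in high glucose and 1, 1 and 3 in control. The scaled ratio of the summed reads was 2.96, with a 95% counting interval of 1.04 to 10.3. The log2 fold change was 1.41 ± 0.59 (limma, adjusted p = 0.0631). P2rx6 passed in 3 of 13 alternatives: a single variance prior (0.0391), library size alone (0.0447) and without control replicate 3 (0.0336). Over the 13, its adjusted p ran from 0.0336 to 0.162.

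P2ry2 (ENSRNOG00000019283), the receptor for ATP and UTP that couples to phospholipase C, had the largest log2 fold change in size of the 10 members. It had 26, 22 and 41 reads in high glucose, against 85, 96 and 115 in control. Every high-glucose sample stood below every control sample. Its level averaged -0.12 ± 0.38 log2 CPM in high glucose and 1.74 ± 0.19 in control (SD, n = 3 each). P2ry2 fell, with a log2 fold change of -1.87 ± 0.22, which is 3.65-fold lower with an interval of 2.62 to 5.08 (limma, adjusted p = 9.14e-06). It passed in all 15 alternatives, at log2 fold changes of -2.07 to -1.69.

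The other P2Y members did not pass and were scarce. P2ry12 (ENSRNOG00000013902), the Gi-coupled ADP receptor of microglia and platelets, had 5, 4 and 7 reads in high glucose and 7, 14 and 11 in control. Its groups met in reads, at 7 each, but did not overlap in log2 CPM. The scaled ratio of summed reads was 0.462, with a counting interval of 0.237 to 0.868, and the log2 fold change was -1.03 ± 0.42 (limma, adjusted p = 0.059). Without control replicate 1 the adjusted p was 0.044, and over 13 alternatives it ran from 0.0241 to 0.184.

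P2ry6, P2ry1 and P2ry14 overlapped between groups. P2ry6 (ENSRNOG00000019270), the UDP receptor known from microglia, had 9, 11 and 16 reads in high glucose and 15, 25 and 11 in control. Its log2 fold change was -0.56 ± 0.37 (limma, adjusted p = 0.233). P2ry1 (ENSRNOG00000014232), a phospholipase C-coupled ADP receptor, had 11, 15 and 13 reads in high glucose and 11, 14 and 7 in control. The groups spanned much the same range, and the log2 fold change was 0.20 ± 0.37 (limma, adjusted p = 0.684), or -0.06 without control replicate 3. P2ry14 (ENSRNOG00000013872), the UDP-glucose receptor, had 8, 4 and 11 reads in high glucose and 16, 5 and 10 in control, with a log2 fold change of -0.48 ± 0.51 (limma, adjusted p = 0.469). The 95% intervals of these log2 fold changes were wide: that of P2ry14 ran from -1.60 to 0.63 and that of P2ry1 from -0.60 to 1.00.

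**Figure D2:**
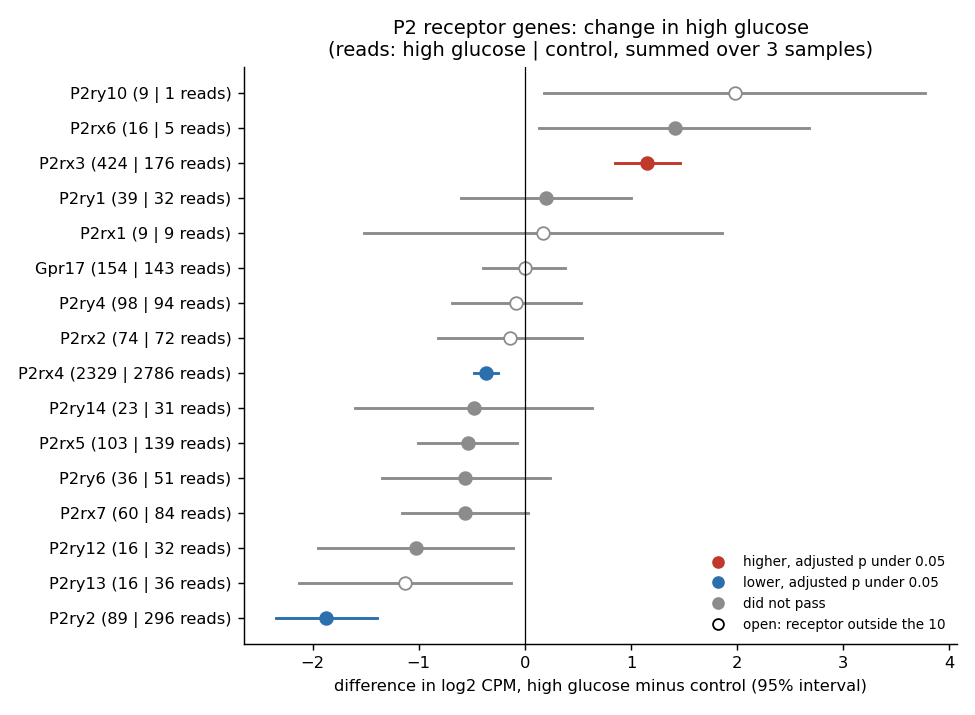
Log2 fold change, high glucose minus control, of each of the 10 members and the 6 other P2 receptors, with 95% intervals and the summed reads of each group; red points passed as higher, blue as lower and grey did not pass, and open points are receptors outside the 10. P2rx3 lies at 1.15, P2rx4 at -0.37 and P2ry2 at -1.87, and none of the 6 other P2 receptors passed.

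All 6 other P2 receptor genes of the list were in the table, and none of them passed. P2rx2, the subunit that forms heteromeric channels with P2X3, had 74 reads in high glucose, against 72 in control, with a log2 fold change of -0.14 ± 0.31 (limma, adjusted p = 0.745). P2ry4, a UTP receptor, had 98 reads in high glucose, against 94 in control (-0.08 ± 0.28), and Gpr17, a related receptor of the oligodendrocyte lineage, had 154 and 143 reads in the same order (-0.00 ± 0.18). The signs of these small values turned under some settings. P2ry13, an ADP receptor beside P2ry12 in the genome, had 16 reads in high glucose, against 36 in control (-1.13 ± 0.46, limma, adjusted p = 0.0581). Its adjusted p was 0.038 without control replicate 1 and 0.0487 without high-glucose replicate 1. P2ry10, listed here by its symbol with no check of its ligand, had 9 reads in high glucose, against 1 in control (1.98 ± 0.83, limma, adjusted p = 0.0639). Its adjusted p was 0.0393 without control replicate 3 and 0.0434 without high-glucose replicate 1. P2rx1 had 9 reads in each group.

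Within each family the make-up of the reads differed between the groups. These shares are of reads, not per transcript length, and are given as a description. P2rx3 took 13.9%, 14.4% and 13.9% of the reads of the 7 P2X genes in high glucose, against 5.92%, 5.55% and 4.71% in control. P2rx4 took 77.2% ± 1.89 of the P2X reads in high glucose and 85.2% ± 1.23 in control (SD, n = 3 each). The P2X genes summed to 31.6 ± 1.02 CPM in high glucose and 37 ± 1.63 CPM in control (SD, n = 3 each).

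The 8 P2Y genes, taken by symbol, summed to 3.73, 2.87 and 3.64 CPM in high glucose and to 6.05, 6.57 and 6.83 CPM in control. P2ry2 took 23.2%, 24.4% and 33.1% of these reads in high glucose, against 50.6%, 47.3% and 56.9% in control. P2ry4, whose level did not pass the test, took 30.2% ± 9.04 in high glucose and 16.4% ± 2.69 in control (SD, n = 3 each). A share can differ because of the other genes of the family, so these values carry no test.

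**Figure D3:**
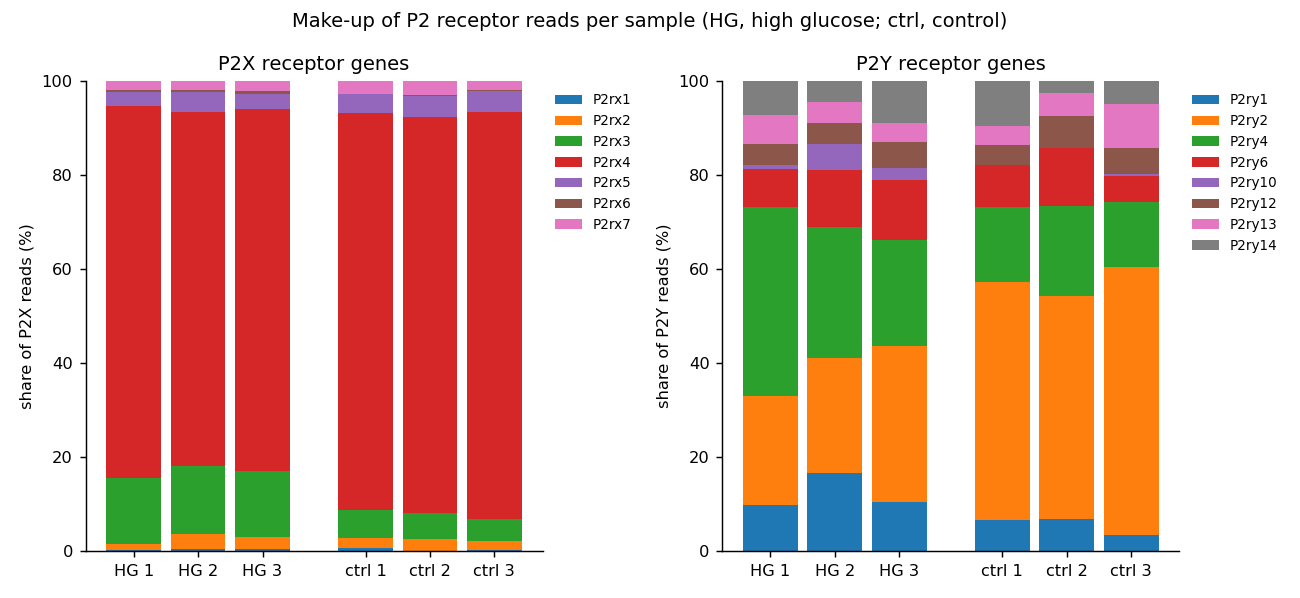
Share of each receptor in the reads of its family (P2X, 7 genes; P2Y, 8 genes) as stacked bars in percent, one bar per sample, with high glucose (HG) left of control (ctrl). P2rx3 takes 13.9% to 14.4% of the P2X reads in high glucose and 4.71% to 5.92% in control, and P2ry2 takes 23.2% to 33.1% of the P2Y reads in high glucose and 47.3% to 56.9% in control.

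For each member that passed, the genes nearest in pattern were sought by the root mean square distance between log2 values centred on each gene over the 6 samples, among 13707 genes of at least 60 reads. Nearest to P2rx3 were Cd80 (distance 0.047, log2 fold change 1.19 ± 0.09), a costimulatory ligand of antigen-presenting cells, and Map2k6 (0.051, 1.10 ± 0.14), a kinase of the p38 pathway. Nearest to P2rx4 were RGD1566265 (0.023, -0.38 ± 0.07) and Dok1 (0.027, -0.39 ± 0.05), an adaptor of tyrosine kinase signalling. Nearest to P2ry2 were Kcng1 (0.135, -1.78 ± 0.15), a modifier subunit of potassium channels, and Hdac9 (0.135, -1.69 ± 0.12), a histone deacetylase. With 6 samples in 2 groups, likeness mostly means a group difference of like size.

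Several members share their place in the genome with another gene, by their spans in GRCr8, and whether the counting used strand was not given. Only whole spans were compared, not exons, so whether reads of overlapping genes could be mixed was not tested. P2rx3 overlaps Ssrp1, a histone chaperone subunit, which had 21935 reads in high glucose, against 19569 in control and a log2 fold change of 0.05 ± 0.02 (limma, adjusted p = 0.0622; 1.32e-05 on library size alone and 0.0401 without high-glucose replicate 2). P2ry2 overlaps Fchsd2, an endocytic protein, which had 4043 and 3614 reads in high glucose and control (0.05 ± 0.04, limma, adjusted p = 0.389; 0.00474 on library size alone). P2rx4 overlaps Camkk2, a calcium-activated kinase, which fell with it: 721 reads in high glucose, 935 in control and a log2 fold change of -0.49 ± 0.08 (limma, adjusted p = 0.000195). P2ry12, P2ry13 and P2ry14 lie within the span of Med12l, a Mediator subunit, which fell (-0.52 ± 0.08, limma, adjusted p = 0.00011). P2rx4 and P2rx7 are neighbours on chromosome 12, and P2ry2 and P2ry6 on chromosome 1.

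Genes that supply, break down or relay the receptors' signals were counted in 7 lists. Of their 86 genes, 78 were measured and 42 passed, 20 higher and 22 lower, which is 53.8% against 50.5% of all genes. Of all genes with a mean level of at least 1 CPM, 61.7% passed. The share was 77.3% for P2Y effectors, 64.7% for ectonucleotidases, 66.7% for nucleoside transporters and 60% for nucleotide release genes. It was 33.3% for adenosine receptors, 20% for P2X7 and P2X4 partners and 0% for the other P2 receptors. With library size alone the counts were 30 higher and 13 lower. Among the 22 measured G-protein and calcium effectors of P2Y receptors, 3 were higher and 14 lower. That split rests on the scaling: with library size alone it was 5 higher and 7 lower. A single variance prior gave 2 higher and 9 lower. Gna14, a Gq-class alpha subunit that couples to phospholipase C, had 4572 reads in high glucose, against 222 in control (4.25 ± 0.08, limma, adjusted p = 9.38e-14). Plcb4, a phospholipase C, fell (-0.81 ± 0.02), and the inositol trisphosphate receptors Itpr3 and Itpr1, which release calcium from stores, also fell (-0.69 ± 0.03 and -0.31 ± 0.02). Other members of both families went the other way: Plcb2 rose (0.70 ± 0.16, limma, adjusted p = 0.00228), and Itpr2 passed as higher (0.15 ± 0.06, limma, adjusted p = 0.0396). The call of Itpr2 was lost without control replicate 1 (0.073), control replicate 3 (0.146), high-glucose replicate 1 (0.126) or high-glucose replicate 3 (0.0788).

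Of the 17 ectonucleotidases and related enzymes, 8 were higher and 3 lower, and 6 did not pass. Nt5e, the ecto-5′-nucleotidase that turns AMP into adenosine, rose 2.3-fold, with 2644 reads in high glucose and 1061 in control (1.20 ± 0.05, limma, adjusted p = 6.32e-10). Enpp3, which cleaves ATP, rose by a log2 fold change of 0.81 ± 0.04. Cd38, an NAD-consuming ectoenzyme, fell 5.23-fold, with 492 reads in high glucose and 2371 in control (-2.39 ± 0.08), and Ada, which deaminates adenosine, fell (-0.82 ± 0.06). Entpd1, an enzyme that hydrolyses ATP and ADP, had 359, 69 and 420 reads in high glucose and 19, 27 and 143 in control. Its groups overlapped, and its call (2.25 ± 0.68, limma, adjusted p = 0.0144) was lost when control replicate 1 (0.0692), control replicate 2 (0.0644), high-glucose replicate 1 (0.0788) or high-glucose replicate 3 (0.0702) was left out, the adjusted p without each in brackets. Entpd2, which turns ATP into ADP, rose by 1.18 ± 0.36, with 90 reads in high glucose and 37 in control (limma, adjusted p = 0.0151). That call was lost without control replicate 3 (0.0576), high-glucose replicate 2 (0.0539) or high-glucose replicate 3 (0.0574).

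Of the 6 nucleoside transporters measured, 3 were higher and 1 lower. Slc28a1, a concentrative pyrimidine transporter, rose 12.6-fold, with 205 reads in high glucose and 14 in control (3.66 ± 0.33, limma, adjusted p = 6.77e-07), and Slc28a2 rose by 0.87 ± 0.21. Slc29a1 and Slc29a3, equilibrative transporters, had log2 fold changes of -0.14 ± 0.03 and 0.13 ± 0.05. The call of Slc29a1 was lost with library size alone (0.575), and that of Slc29a3 (adjusted p = 0.0453) in 7 alternatives, among them without control replicate 1 (0.182), control replicate 2 (0.065), high-glucose replicate 1 (0.12) or high-glucose replicate 2 (0.123). Among the 3 adenosine receptors, Adora2a, a Gs-coupled receptor, rose 2.83-fold, with 54 reads in high glucose and 18 in control (1.50 ± 0.42, limma, adjusted p = 0.00918).

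Of 10 measured genes of nucleotide release, 3 were higher and 3 lower. Gja1 and Gjb2, connexins that form hemichannels, rose by 0.33 ± 0.02 and 0.60 ± 0.05, while Slco2a1, a subunit of the Maxi-Cl channel, and Panx3, a pannexin, fell (-0.51 ± 0.11 and -0.88 ± 0.20). Panx1, the ATP-releasing partner of P2X7, had a log2 fold change of 0.00 ± 0.07 (limma, adjusted p = 0.962), and Slc17a9, the vesicular nucleotide transporter, of 0.31 ± 0.29 (limma, adjusted p = 0.393). Of the 15 partners and downstream genes of P2X7 and P2X4, 2 were higher and 1 lower, against 8 higher and 1 lower with library size alone. Gsdmd, a pore-forming protein, rose by a log2 fold change of 0.16 ± 0.04 (limma, adjusted p = 0.00894). Bdnf, the neurotrophin released after P2X4 activation in microglia, fell (-0.47 ± 0.08, limma, adjusted p = 0.000356). Nlrp3 (0.22 ± 0.12, limma, adjusted p = 0.128; 0.0306 without high-glucose replicate 1) and Casp1 (0.73 ± 0.32, adjusted p = 0.0697; 0.01 without control replicate 1), both of the inflammasome, did not pass.

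**Figure D4:**
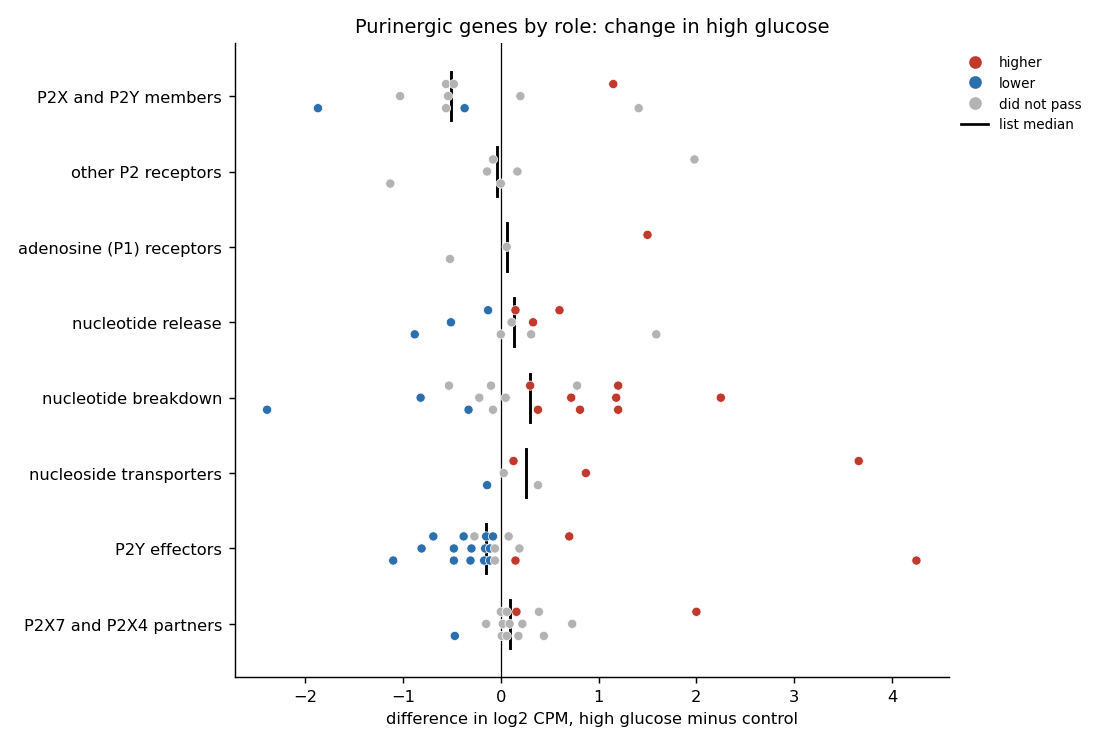
Log2 fold change, high glucose minus control, of the 10 members (top row) and every measured gene of the 7 purinergic lists, with list medians as black bars and genes that passed in red (higher) or blue (lower). Gna14 at 4.25 and Slc28a1 at 3.66 lie farthest to the right, and Cd38 at -2.39 lies farthest to the left.

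In bulk samples, fewer cells of a type and less RNA per cell cannot be told apart. Beside the marker counts below stands the share of all genes that passed, 50.5% (24.9% higher, 25.5% lower). The markers of neurons, the cells for which P2rx3 is known, were mostly lower in high glucose. Of 15 pan-neuronal markers 1 was higher and 8 lower. Their summed level was 76.4 to 78.9 CPM in high glucose and 116.1 to 119.8 in control. Uchl1, which fell (-0.29 ± 0.04), was 62.1% of that sum in high glucose and 50.1% in control. The other 14 summed to 28 to 31.2 CPM in high glucose and 57 to 59.5 in control. Prph, a filament of peripheral neurons, had 85 reads in high glucose, against 504 in control (-2.67 ± 0.19), Tubb3 had 847 and 2034 (-1.38 ± 0.06), Elavl4 7 and 63, and Snap25 2 and 27. Syt1, a calcium sensor of synaptic vesicles, was the 1 that rose, with 1332 reads in high glucose, against 669 in control (0.88 ± 0.07, limma, adjusted p = 1.54e-07). Of 13 nociceptor markers 1 was higher and 6 lower, with a summed level of 124.8 to 133.4 CPM in high glucose and 168.6 to 177.7 in control, and 2 of them had no reads in high glucose. Runx1, a transcription factor also made by other cells, was 98.3% of that sum in high glucose and 96.6% in control. The other 12 summed to 1.73 to 2.52 CPM in high glucose and 5.57 to 6.19 in control. P2rx3 itself averaged 4.46 CPM in high glucose and 2.01 CPM in control. It thus rose in samples where most neuronal markers that passed fell, and which cells made its RNA was not tested. Among nociceptor markers, Scn10a had 3 reads in high glucose, against 16 in control (-2.15 ± 0.77, limma, adjusted p = 0.0322), a call lost without control replicate 1 (0.153), control replicate 2 (0.0804) or high-glucose replicate 1 (0.11). Mrgprd had 15 reads in high glucose, against 1 in control (2.53 ± 0.83, limma, adjusted p = 0.021), a call lost without control replicate 2 (0.0579), control replicate 3 (0.0562) or high-glucose replicate 2 (0.132). Trpv1, with 41 reads in high glucose and 54 in control, did not pass (limma, adjusted p = 0.176). Among those better read, Gfra2 fell, with 58 reads in high glucose and 185 in control (-1.81 ± 0.24, limma, adjusted p = 3.21e-05). Ret fell as well, with 19 and 90 reads in the same order (-2.26 ± 0.34, limma, adjusted p = 9.67e-05). Gfra2 passed in all 15 alternatives and Ret in all 13 that held it. Calca, with 59 and 110 reads, fell (-1.02 ± 0.33, limma, adjusted p = 0.0209) and passed in 9 of 13. Defining neuronal markers such as Rbfox3 (9 reads in high glucose, 6 in control), Isl1 (2 and 7) and Pou4f1 (1 and 7) were scarce in both groups, although the labels call the cells nerve cells.

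Macrophage markers, relevant to P2rx4, P2rx7, P2ry6 and P2ry12, split: of 17 measured 3 were higher and 4 lower, with a summed level of 41.8 to 43.7 CPM in high glucose and 37.1 to 39.1 in control. Without Cd14, a lipopolysaccharide co-receptor that rose (log2 fold change 0.63 ± 0.06), the other 16 summed to 26.4 to 27.5 CPM in high glucose and 27.3 to 28.8 in control, which overlap. Csf1r rose (log2 fold change 0.68), while Adgre1 (-1.27), C1qa (-1.68) and Cx3cr1 (-1.37) fell. The call of Cx3cr1 (limma, adjusted p = 0.0255) was lost without control replicate 1 (0.0892), high-glucose replicate 2 (0.0949) or high-glucose replicate 3 (0.0655). Cd68 (limma, adjusted p = 0.185) and Tyrobp (0.669) did not pass. Glial markers also differed: 10 of 11 Schwann cell markers were lower and none higher, and of 9 satellite glia markers 2 were higher, Glul (0.90 ± 0.04) and Slc1a3 (0.90 ± 0.07), and 5 lower, among them Sox10 (-0.70 ± 0.05), which is on both lists. Of 11 mural and smooth muscle markers 3 were higher and 6 lower, of 4 platelet markers none and 1, and of 2 mast cell markers none and 1. None of 6 endothelial and 2 lymphocyte or granulocyte markers passed. Of 9 fibroblast markers 5 were higher and 3 lower, and they summed to 51887.5 to 54474.5 CPM in high glucose and 56532.9 to 58667.1 in control. Without Col1a1, a chain of type I collagen, the other 8 summed to 26679.7 to 27013.6 CPM in high glucose and 22639.2 to 23229.5 in control. The part of these cell types in the receptors' values was not tested.

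**Figure D5:**
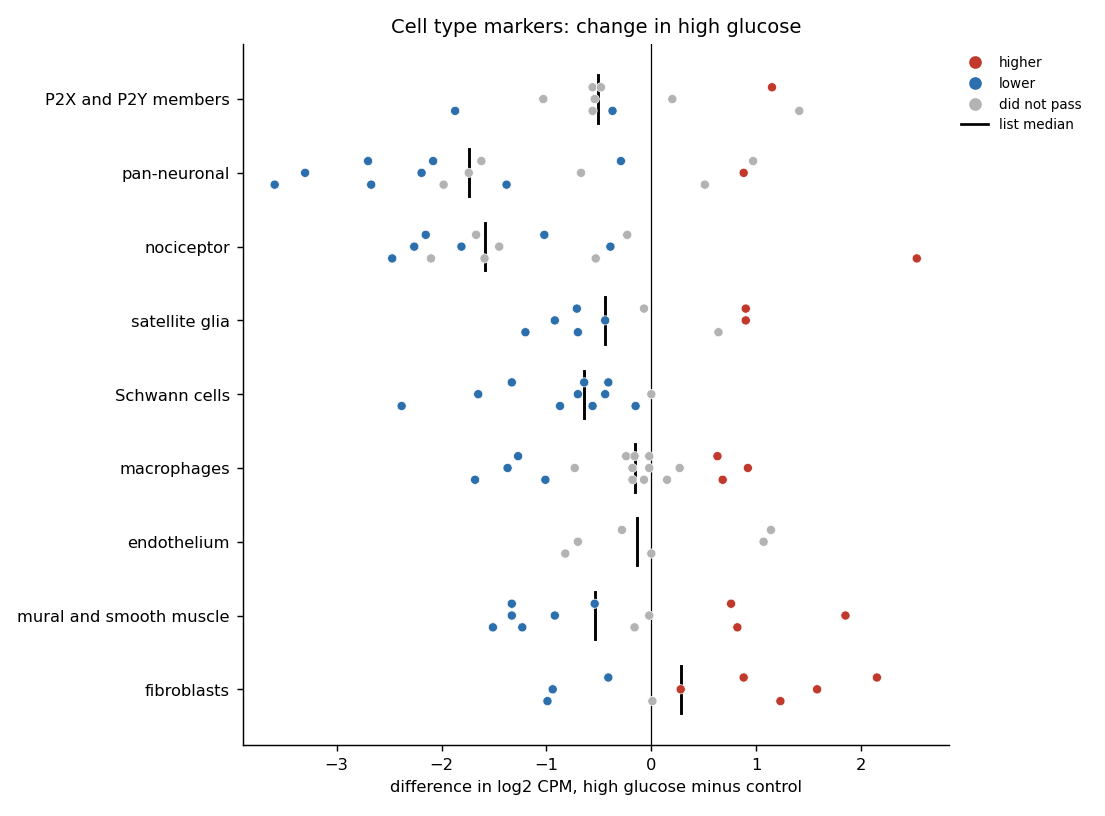
Log2 fold change, high glucose minus control, of the 10 members (top row) and the measured markers of 8 cell types, with list medians as black bars and genes that passed in red (higher) or blue (lower). The median was -1.74 for pan-neuronal markers, -0.64 for Schwann cell markers and -0.16 for macrophage markers.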

How the data were processed

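RNA from 6 samples was sequenced, and the authors deposited log2 CPM per gene, which its file name calls voom-normalized. Each value takes the gene's reads, adds 0.5, divides by a scaled library total and is logged. The build Rnor_6.0 and the tools HISAT2 2.1.0, featureCounts 1.6.0 and fastp 0.19.4 are named in the submitters' processing notes; the annotation and strand setting are not given in the sources used here. The growth protocol mentions paraformaldehyde fixation, and whether this applied to the sequenced cells is not stated.

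Whole reads were worked back from the deposited log2 values: 100.0% came within 0.01 of a whole number. The scaling factors were 1.0426, 1.0477 and 1.0303 in high glucose and 0.9594, 0.9603 and 0.9644 in control. Every gene had reads in at least 3 samples. The mean chi-square per gene was 3.01 to 4.8 between samples of a group, against 87.1 to 93.7 between groups, so none was a duplicate file.

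The deposited values were fitted with limma 3.58.1 (R 4.3.3), group as the term, a trended variance prior, two-sided, Benjamini-Hochberg adjustment over 16551 genes and a threshold of 0.05, after the code was tested on simulated data. The deposited log2 values were tested as they stand, and no count model was fitted to the reads worked back from them. Folds are ratios of fitted log2 means and understate scarce genes, and read ratios carry exact 95% intervals that cover counting error only. The lncRNA table was not used. Alternatives were a single variance prior, quantile normalization, library size alone, median-of-ratios factors, voom weights, 2 reads added, filters on low values, the replicate block and each sample left out.

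The members and lists were chosen with earlier results of these data known. The named genes are all members, up to 4 genes per list with the smallest p among those that passed, known partners, cell markers and the 2 genes nearest in pattern to each member that passed. Overlapping genes, Entpd1, Entpd2, Enpp1, Plcb2, Itpr2 and single markers were added after their values were seen. A few such genes are not reported here. Promoter windows are from RefSeq (GRCr8). Python 3.11.15 and matplotlib 3.10.9 made the figures.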

Additional observations from a re-analysis of the deposited data

How the results depend on the processing

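The calls of P2rx3, P2rx4 and P2ry2 held in all 15 alternatives. Of 138 values of single members, 124 kept direction and call, 13 passed that had not, none lost a call and 1 reversed. Of 941 values of the other single genes followed, 37 lost a call, 17 gained one and 15 reversed. The members counted as higher were 2 with a single variance prior and with library size alone and 1 to 2 with a sample left out, against 1. Those counted as lower were 4 with a single variance prior, 5 with quantile normalization and 2 to 3 with a sample left out, against 2. Pathway genes counted as higher and lower were 30 and 13 with library size alone and 16 and 16 with a single variance prior, against 20 and 22; with a sample left out, 17 to 20 were higher and 19 to 23 lower. Library size alone moved the median of all genes to 0.125 from 0.012 and gave 5932 higher and 2847 lower genes (67.6% of calls higher, against 49.4%), so small changes are relative to that shift.

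Reversed log2 fold changes were all near 0 or of scarce genes. P2ry1 ran from -0.06 to 0.38 with a sample left out, P2rx1 from -0.25 to 0.98, P2rx2 from -0.38 to 0.18, P2ry4 from -0.37 to 0.08, Gpr17 from -0.04 to 0.03 and Panx1 from -0.03 to 0.04. With library size alone P2ry4 was at 0.03 and Gpr17 at 0.11, and with quantile normalization Panx1 was at -0.03. The cause was not tested.

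Same-numbered samples had correlations of deviations from their group means of -0.021, -0.084 and -0.026 over 13708 genes. Other-numbered samples had correlations of -0.017 to 0.046. Whether same-numbered samples shared a culture or batch cannot be told from these values. With the replicate block, 3968 genes were higher and 4084 lower, the members 1 and 2, and the pathway genes 18 and 22; Slc29a3 (0.0673), Itpr2 (0.0591) and Scn10a (0.053) lost their calls. Of the members, 6 have no value under the filters on low values.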
